A study of Mus musculus with 16 samples.

Results

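The genes listed in the count tables under the symbols Sod1, Sod2, Sod3, Cat, Gpx1, Gpx2, Gpx3, Gpx4 and Gpx8 were followed here, 9 of the 55367 genes in the files. They encode the superoxide dismutases, catalase and most of the glutathione peroxidases. The rule for membership was the symbol, and each gene was read in every library.

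RNA sequencing was performed in mIMCD3 cells, an epithelial line derived from the inner medullary collecting duct of the mouse kidney, although the extraction label speaks of primary cells. The data comprised 16 libraries in 8 groups of 2. WT cells received the solvent DMSO or sulforaphane (SFN), an electrophile known to activate the transcription factor Nrf2, for 5 h. They were then sampled under isosmotic conditions or after 1 h or 6 h in hyperosmotic medium of 600 mOsm. No isosmotic group was labelled as matched to the 1 h or 6 h of stress. In comparisons with isosmotic cells, osmolality therefore cannot be told apart from time in culture, time since pretreatment or any change of medium. The SFN dose of these libraries is not given in the sources used here. Nrf2-/- cells, made with CRISPR/Cas9 delivered by lentivirus and drug selection, were sampled only after SFN, isosmotic and at 1 h. Nrf2-/- cells given DMSO were not analysed here, so the SFN response of that line could not be computed, and genotype cannot be told apart from any other difference between the lines. Whether the Nrf2-/- line was 1 clone is not given in the sources used here. The study describes its RNA-seq samples as biological replicates. With 2 libraries a group, the error of each test rests largely on the spread pooled over all groups. In such bulk RNA, fewer cells of a type and less RNA per cell cannot be told apart.

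Superoxide is converted to hydrogen peroxide by superoxide dismutases, of which Sod1 works with copper and zinc in the cytosol, Sod2 with manganese in mitochondria and Sod3 outside the cell. Hydrogen peroxide is then removed by catalase, a heme enzyme of peroxisomes, and by glutathione peroxidases, which also reduce lipid peroxides at the expense of glutathione. Cells of the inner medulla live in a milieu of high salt and urea, and oxidants are among the stresses known to accompany such conditions. Nrf2 binds antioxidant response elements with small Maf proteins and is known for its control of glutathione synthesis and quinone reduction.

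The promoters of 4 members are shown because these genes carried the changes described below, or, for Sod1, because its window alone among the members held the core letters of an antioxidant response element. Windows of 250 bases before each RefSeq start (GRCm38.p6) were found for 8 of the 9 members, with no entry for Sod3. Bases that GENCODE M21 places in exons were left off the printed stretches. Capitals mark matches on either strand to the antioxidant response element core TGACNNNGC, the GC box GGGCGG and the CCAAT box CCAAT, all read 5′ to 3′ along the gene.
Cat, chr2:103485161-103485403, minus strand: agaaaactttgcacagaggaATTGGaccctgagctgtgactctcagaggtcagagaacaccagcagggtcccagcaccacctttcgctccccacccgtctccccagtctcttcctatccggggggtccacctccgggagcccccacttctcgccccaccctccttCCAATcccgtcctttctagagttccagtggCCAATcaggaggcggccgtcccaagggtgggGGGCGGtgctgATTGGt
Sod1, chr16:90220512-90220753, plus strand: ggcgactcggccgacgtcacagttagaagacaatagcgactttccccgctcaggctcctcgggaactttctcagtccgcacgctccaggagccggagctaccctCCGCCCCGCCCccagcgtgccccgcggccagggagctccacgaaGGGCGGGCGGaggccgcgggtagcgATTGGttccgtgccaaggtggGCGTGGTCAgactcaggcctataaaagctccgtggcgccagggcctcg
Gpx4, chr10:80053315-80053487, plus strand: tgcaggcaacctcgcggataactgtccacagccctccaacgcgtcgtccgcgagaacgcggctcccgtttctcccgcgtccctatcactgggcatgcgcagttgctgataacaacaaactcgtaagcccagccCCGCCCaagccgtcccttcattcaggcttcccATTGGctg
Gpx1, chr9:108338830-108338902, plus strand: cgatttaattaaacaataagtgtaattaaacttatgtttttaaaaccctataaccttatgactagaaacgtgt

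The antioxidant response element core was present in 10.2% of 32851 windows of this length, and in Sod1 it stood 56 bases before the start on the minus strand as TGACCACGC. The GC box was present in 32.7% of all windows and the CCAAT box in 33.8%. The Cat window held 4 CCAAT boxes and 1 GC box, the Sod1 window 4 GC boxes in 2 overlapping pairs and 1 CCAAT box, and the whole 250-base Gpx1 window none of the 3 motifs. Of the 4 Gpx4 windows, 1 for each RefSeq start, none held the core. These matches are descriptions of letters only, and the absence of a match says nothing of binding elsewhere.

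Total counts per library lay between 34484296 and 50774875. Levels are given as CPM, a library's counts scaled to a common total and adjusted by the trimmed mean of M values (TMM). Even numbers made up 58.0% to 68.5% of the counts from 1 to 10 in a library, so counts near 0 may not be independent fragments. Nfe2l2, the gene of Nrf2, had 386 to 433 counts in the Nrf2-/- libraries and 2496 to 5013 in the WT libraries. Nqo1, a quinone reductase under Nrf2 control, had 0, 0, 9 and 4 counts in the 4 Nrf2-/- libraries and 60 to 398 in WT. These checks of the labels showed no overlap between the genotypes.

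The labelled epithelium was checked against its markers. Of 12 markers of collecting duct or distal tubule epithelium, 10 had a median of at least 1 CPM, led by the keratin Krt8 at 859 CPM. The 2 that did not were Aqp2, the vasopressin-regulated water channel, at a median of 0.0226 CPM and the vasopressin receptor Avpr2 at 0.0476 CPM. The summed level of this list was 2286 to 3402 CPM in the WT libraries that were isosmotic or at 1 h, 4921 to 5287 CPM at 6 h and 2361 to 2997 CPM in the Nrf2-/- libraries. The most abundant genes of the other lists were Lrp2 for proximal tubule (median 7.12 CPM, list sum at most 27.5), Col1a1 for fibroblasts (3.22 CPM, at most 7.10), Pecam1 for endothelium (0.480 CPM, at most 5.36) and Cd68 for leukocytes (3.27 CPM, at most 13.4). Slc22a6, Dcn and Adgre1 had a median of 0.

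Several of these markers moved with the conditions. The kidney transcription factor Pax2 was at 119 CPM in WT DMSO isosmotic cells, 1141 CPM in WT DMSO cells at 6 h and 26.9 CPM in Nrf2-/- SFN isosmotic cells. The adhesion gene Epcam was at 48.8 CPM in WT SFN isosmotic cells and 284 CPM in their Nrf2-/- counterparts, while the cadherin Cdh16 was at 200.4 and 20.5 CPM. In the comparison of genotypes under SFN without hyperosmotic stress, 2 of the 11 tested epithelial markers were higher and 4 lower in Nrf2-/- cells, beside 34.1% of all genes called. With SFN in isosmotic WT cells 4 of the 11 were lower, Cdh1 (log2 fold change -0.66), Krt8 (-0.42), Krt18 (-0.56) and Krt19 (-0.72), and the list median was -0.42, where 2.84% of all genes were called. At 6 h 7 were higher and 1 lower under DMSO, and 9 were higher under SFN, where 45.9% and 47.6% of all genes were called and 23.9% called higher under DMSO. The other lists were low in level, but at 6 h under DMSO 3 of 3 tested proximal tubule, 2 of 3 endothelial, 3 of 4 leukocyte and 1 of 2 fibroblast markers were higher. Under SFN the counts were 2 of 3, 2 of 3, 3 of 4 and 1 of 2. Adgre1, Itgam, Kdr and the epithelial Aqp2 had at most 6 counts in any library outside the 6 h groups. They passed the filter on low counts only through those groups, and Slc5a2 had at most 2 counts in any isosmotic library. A fall at 6 h could hardly be seen for these genes, so the counts do not measure a gain of such markers. The leukocyte sum was 9.29 to 13.4 CPM at 6 h and at most 7.39 CPM in the other libraries. The part of these markers in the results below was not tested.

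The 2 Nrf2-/- libraries at 1 h stood apart from each other. The biological coefficient of variation within that group was 0.348, against 0.0393 to 0.128 in the other 7 groups. Among those 7 the WT isosmotic groups were highest, at 0.111 with DMSO and 0.128 with SFN. Replicate 1 exceeded replicate 2 by 1.45 in log2 CPM for Sod1, 0.84 for Gpx8, 0.81 for Gpx1 and 0.60 for Gpx4, but by only 0.22 for Sod2, and Cat was lower by 0.20. Among all genes, those with exons of at most 1816 bases in total had a median difference of 0.60 between these libraries, and those with at least 5806 bases one of -0.27. By this length Gpx1, Gpx4 and Gpx8 fall in the short class, Sod2 in the long one and Sod1 and Cat between them. The place of Sod1 depends on the length used, as its exons total 3970 bases but its longest principal transcript has 641. The part of transcript length in these differences was not tested.

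**Figure D1:**
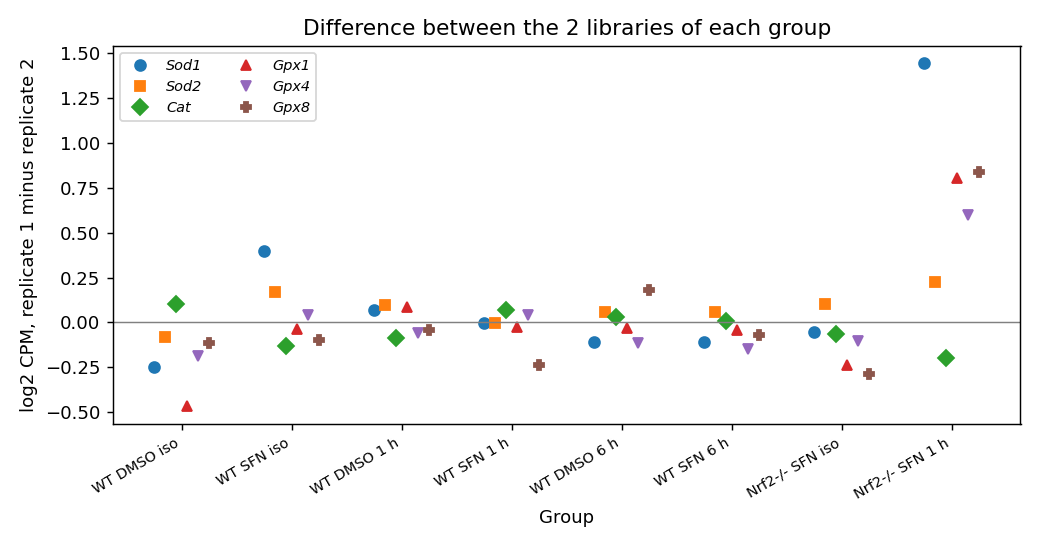
Difference in log2 CPM between replicate 1 and replicate 2 (vertical axis) for 6 members in each of the 8 groups (horizontal axis). In the Nrf2-/- SFN 1 h group the difference reaches 1.45 for Sod1, while in the 7 other groups every point lies between -0.47 and 0.40.

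Of the 9 members, 8 passed the filter on low counts and 6 averaged at least 50 counts, the latter being Sod1, Sod2, Cat, Gpx1, Gpx4 and Gpx8. Median levels over the 16 libraries were 243 CPM for Sod1, 217 CPM for Gpx4, 117 CPM for Gpx1, 57.2 CPM for Cat, 49.4 CPM for Sod2 and 23.7 CPM for Gpx8. Per kilobase of all annotated exons the medians were 126 CPM for Gpx4, 81.1 for Gpx1, 61.3 for Sod1, 22.6 for Gpx8, 21.9 for Cat and 4.94 for Sod2. Per kilobase of the longest principal transcript, Sod1 came first with 380 CPM, ahead of Gpx4 with 227 and Gpx1 with 109, so the order at the top depended on the length used. Sod2 was lowest of the 6 on both scales. Sod1 and Gpx4 together made up 57.4% to 76.1% of the summed CPM of the 9 members.

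**Figure D2:**
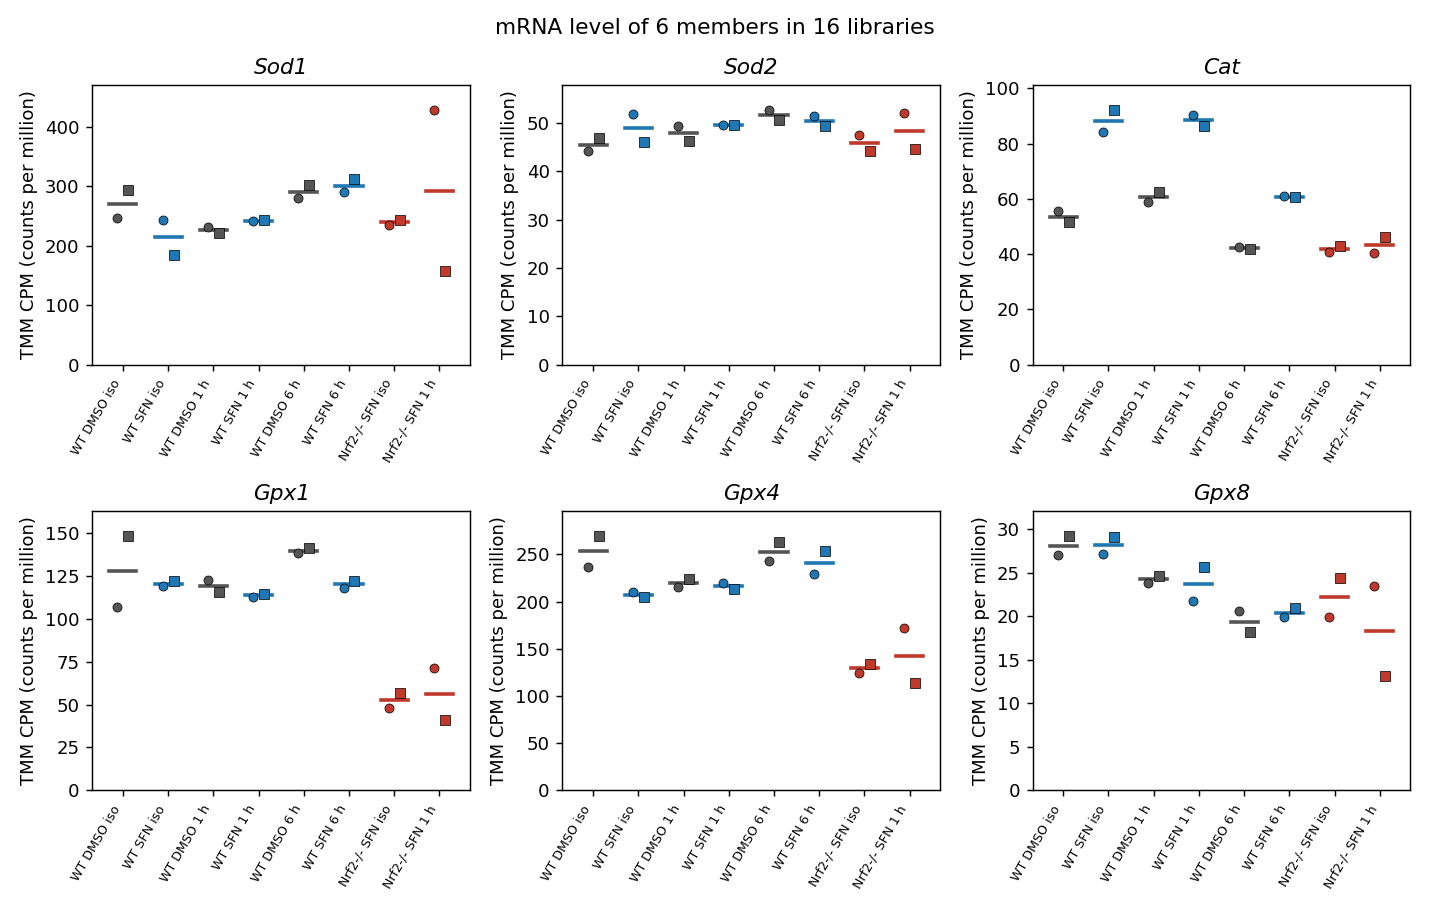
Level of the 6 members with at least 50 counts on average (vertical axes, CPM from 0) in the 8 groups (horizontal axes). Circles are replicate 1, squares replicate 2 and bars the mean of the 2; grey is DMSO, blue SFN in WT cells and red SFN in Nrf2-/- cells. Cat is higher in each blue group than in the grey group of the same time, Gpx1 and Gpx4 are low in the red groups, and Sod2 stays between 44.2 and 52.6 CPM in all 16 libraries.

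Sod1, the cytosolic dismutase (ENSMUSG00000022982.10, chr16:90220754-90226329, plus strand, GRCm38, 6 annotated exons), was abundant in every group. Sod1 was at 247 and 294 CPM in WT DMSO isosmotic libraries, 243 and 185 CPM in WT SFN isosmotic libraries, 231 and 221 CPM in WT DMSO libraries at 1 h and 242 and 242 CPM in WT SFN libraries at 1 h. At 6 h it was at 279 and 301 CPM with DMSO and 289 and 312 CPM with SFN. In Nrf2-/- cells it was at 235 and 243 CPM without hyperosmotic stress and at 427 and 157 CPM at 1 h. The last pair spanned all other libraries.

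Sod1 passed the test in 0 of 10 comparisons (edgeR's quasi-likelihood test, Benjamini-Hochberg adjusted p under 0.05 over 19509 genes). Its lowest unadjusted p was 0.155, for 6 h against isosmotic under SFN, where the log2 fold change was 0.49 (95% interval -0.21 to 1.19). When both Nrf2-/- 1 h libraries were left out of the fit, that value was 0.46 with an adjusted p of 0.000530, and the SFN effect without hyperosmotic stress was -0.34 with an adjusted p of 0.0271. With only the 12 WT libraries the first was 0.50 (adjusted p = 0.00157). The second was then -0.32 and did not pass (adjusted p = 0.0733). Sod1 could share reads with its processed pseudogene Gm8566, 98.0% identical over 298 bases and at 166 to 614 counts. Adding these counts to Sod1 gave it no call.

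The Nrf2-/- 1 h pair decided every Sod1 value that used it. Against WT cells given SFN at 1 h, Sod1 was 0.27 higher on the log2 scale with both libraries (95% interval -0.43 to 0.97), lower by 0.61 without replicate 1 (adjusted p = 0.000306) and higher by 0.82 without replicate 2 (adjusted p = 1.45e-05). No direction is given for Sod1 in this comparison.

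Sod2, the mitochondrial dismutase (ENSMUSG00000006818.5, chr17:13006846-13040063, plus strand), was the steadiest member. It lay between 44.2 and 52.6 CPM over the 16 libraries, a 1.19-fold range, whereas the other 5 well-counted members spanned 2.23-fold to 3.64-fold. Its group means ran from 45.5 ± 1.85 CPM (SD, n = 2) in WT DMSO isosmotic cells to 51.6 ± 1.45 CPM in WT DMSO cells at 6 h. It too was called in 0 of 10 comparisons, with log2 fold changes from -0.09 to 0.18 and 95% interval bounds that stayed between -0.32 and 0.41. For 6 h against isosmotic under DMSO it was called in 5 alternatives, which were RLE scaling, a minimum of 10 counts in each library, the 12 WT libraries, the 4 libraries compared and DESeq2.

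Sod3, the secreted dismutase (ENSMUSG00000072941.5, chr5:52363791-52371418, plus strand), had 22 counts in all, in 5 libraries, and did not pass the filter on low counts. It was at 0 in the other 11 libraries, where 3 counts would correspond to 0.0556 to 0.0935 CPM depending on the library. All Nrf2-/- libraries were among those at 0.

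Cat, the peroxisomal enzyme that splits hydrogen peroxide into water and oxygen (ENSMUSG00000027187.10, chr2:103453849-103485160, minus strand, 17 annotated exons), was the member that followed SFN. It was at 55.4 and 51.6 CPM in WT DMSO isosmotic libraries and at 84.1 and 92.1 CPM in WT SFN isosmotic libraries. At 1 h it was at 59.0 and 62.6 CPM with DMSO and 90.5 and 86.4 CPM with SFN, and at 6 h at 42.6 and 41.7 CPM with DMSO and 60.9 and 60.6 CPM with SFN. Both SFN libraries lay above both DMSO libraries at each time.

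Without hyperosmotic stress Cat rose 1.65-fold with SFN (log2 fold change 0.72, SE 0.10, edgeR adjusted p = 0.000638). It was the only one of the 8 tested members called in this comparison, in which 2.84% of the 19509 genes were called and 1.09% were called higher. The log2 fold change of Cat was 0.54 at 1 h (SE 0.10, unadjusted p = 6.55e-05, adjusted p = 0.0672) and 0.53 at 6 h (SE 0.10, unadjusted p = 9.37e-05, adjusted p = 0.183), so neither passed. In these comparisons 0 members were called by edgeR, against 0.0923% of genes at 1 h and 0.0410% at 6 h, and 1 member, Cat, had an unadjusted p under 0.05, as did 669 and 718 genes. Both effects of Cat passed with DESeq2, with only the 12 WT libraries, with only the 4 libraries compared and when both Nrf2-/- 1 h libraries were left out of the fit. In that last fit the values were 0.54 (adjusted p = 0.000317) and 0.52 (adjusted p = 0.00134). The SFN effect at 1 h minus the isosmotic one was -0.18 (95% interval -0.47 to 0.12), and at 6 h -0.19 (-0.49 to 0.10). With edgeR these tests of a difference called 0.559% and 0.759% of genes and 0 members, and with DESeq2 277 and 370 genes and 0 members. At an unadjusted p under 0.05 they held 1487 and 1721 genes and 0 members. The intervals do not show that the effects were equal.

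Cat was lower after 6 h in hyperosmotic medium than in isosmotic cells. The log2 fold change against isosmotic cells was -0.34 under DMSO (SE 0.10, edgeR adjusted p = 0.0101) and -0.54 under SFN (SE 0.10, adjusted p = 0.000395). Called genes made up 45.9% of those tested in the first comparison and 47.6% in the second, so a call there was common. Of all genes, 22.0% and 22.9% were called lower. The call under DMSO was lost in 6 of 14 alternatives, among them scaling by relative log expression (-0.26, adjusted p = 0.0625), correction for gene length and GC content (-0.21, adjusted p = 0.179) and leaving out WT DMSO isosmotic replicate 1 (adjusted p = 0.0794) or WT DMSO 6 h replicate 2 (adjusted p = 0.0673). The call under SFN held in all 14. At 1 h the changes were 0.18 under DMSO (95% interval -0.02 to 0.39), 0.01 under SFN (-0.20 to 0.21) and 0.05 in Nrf2-/- cells (-0.16 to 0.26), none of which passed.

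Cat was low in Nrf2-/- cells, at 40.9 and 42.9 CPM without hyperosmotic stress and 40.3 and 46.2 CPM at 1 h. These 4 libraries lay below every WT library except the 2 WT DMSO libraries at 6 h, at 42.6 and 41.7 CPM, with which they overlapped. Against WT cells given SFN, Cat was 2.10-fold lower without hyperosmotic stress (log2 fold change -1.07, SE 0.10, edgeR adjusted p = 9.22e-07) and 2.04-fold lower at 1 h (-1.03, SE 0.10, adjusted p = 1.59e-06). Both calls held in every alternative run, with values from -1.14 to -0.87. Relative to WT cells given DMSO, whose isosmotic mean was 53.5 ± 2.73 CPM (SD, n = 2), the Nrf2-/- SFN isosmotic mean of 41.9 ± 1.39 CPM was lower, a difference between groups that differ in both genotype and treatment and that was not tested.

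Gpx1, the abundant cytosolic and mitochondrial glutathione peroxidase (ENSMUSG00000063856.7, chr9:108338903-108340343, plus strand), was at 107 and 148 CPM in WT DMSO isosmotic libraries and at 119 and 122 CPM in WT SFN isosmotic libraries. In WT cells under hyperosmotic stress its 8 libraries lay between 113 and 141 CPM. Nrf2-/- cells had 48.2 and 56.8 CPM without hyperosmotic stress and 71.3 and 40.7 CPM at 1 h. The 4 Nrf2-/- libraries lay below all 12 WT libraries.

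In the comparison of genotypes, Gpx1 was 2.30-fold lower in Nrf2-/- cells without hyperosmotic stress (log2 fold change -1.20, SE 0.20, edgeR adjusted p = 0.000310) and 2.03-fold lower at 1 h (-1.02, SE 0.20, adjusted p = 0.00126). The first call held in all 13 alternatives. The second was lost when only the 4 libraries compared were fitted (adjusted p = 0.102), and it ranged from -1.47 without Nrf2-/- replicate 1 to -0.67 without replicate 2. No SFN or hyperosmotic comparison called Gpx1. Its SFN effect was -0.08 (95% interval -0.50 to 0.34) without stress, -0.07 (-0.49 to 0.35) at 1 h and -0.22 (-0.64 to 0.20) at 6 h.

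Gpx4, which reduces phospholipid hydroperoxides and is known as the guard against ferroptosis (ENSMUSG00000075706.10, chr10:80047166-80056439, plus strand), showed a like pattern at a higher level. It was at 237 and 269 CPM in WT DMSO isosmotic libraries, 210 and 204 CPM in WT SFN isosmotic libraries and 213 to 263 CPM in the 8 WT libraries under hyperosmotic stress. In Nrf2-/- cells it was at 125 and 134 CPM without stress and 172 and 113 CPM at 1 h. Again no Nrf2-/- library reached the lowest WT library.

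The log2 fold change of Gpx4 between genotypes was -0.68 without hyperosmotic stress (SE 0.15, edgeR adjusted p = 0.00228) and -0.60 at 1 h (SE 0.15, adjusted p = 0.00592). After correction for gene length and GC content these values shrank to -0.24 (adjusted p = 0.0225) and -0.20 (adjusted p = 0.0560), and with only the 4 libraries compared the 1 h call was lost as well (adjusted p = 0.190). The 1 h value was -0.92 without Nrf2-/- replicate 1 and -0.33 without replicate 2, and both passed. Gpx4 exons are short and rich in GC, at 60.2% in the longest transcript, next to 57.2% for Gpx1 and 48.7% for Cat. The pseudogene Gpx4-ps2, 99.7% identical over 733 bases, had 781 to 2324 counts and was itself lower in Nrf2-/- cells by 0.81 and 0.62 on the log2 scale (adjusted p = 0.000195 and 0.00179). Reads of the pair may have been split by the counting. With both rows added together the Gpx4 values were -0.70 and -0.61, and both passed.

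In WT cells Gpx4 was not called. The SFN effect without hyperosmotic stress was -0.29 (95% interval -0.60 to 0.02, adjusted p = 0.369), and it passed when both Nrf2-/- 1 h libraries were left out of the fit (adjusted p = 0.0102). In that fit 2786 genes were called in the comparison, against 555 with all 16 libraries. At 1 h the SFN effect was -0.02 (-0.34 to 0.29) and at 6 h -0.07 (-0.38 to 0.25).

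The genotype comparisons together called 3 of the 8 tested members in each, all lower in Nrf2-/- cells, namely Cat, Gpx1 and Gpx4. Of all genes tested, 34.1% were called without hyperosmotic stress and 31.5% at 1 h, 18.4% and 16.2% as lower. The median log2 fold change of the 6 well-counted members was -0.51 and -0.49, beside -0.00 and -0.02 over all genes. Over the 8 tested members it was -0.22 and -0.49. The difference of the 1 h effect between genotypes was called for 0 members by edgeR, beside 0.123% of genes, and for 0 members by DESeq2, beside 128 genes. At an unadjusted p under 0.05 it held 1433 genes and 0 members. Sod1 was called in that test without either one of the Nrf2-/- 1 h libraries, with opposite signs.

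**Figure D3:**
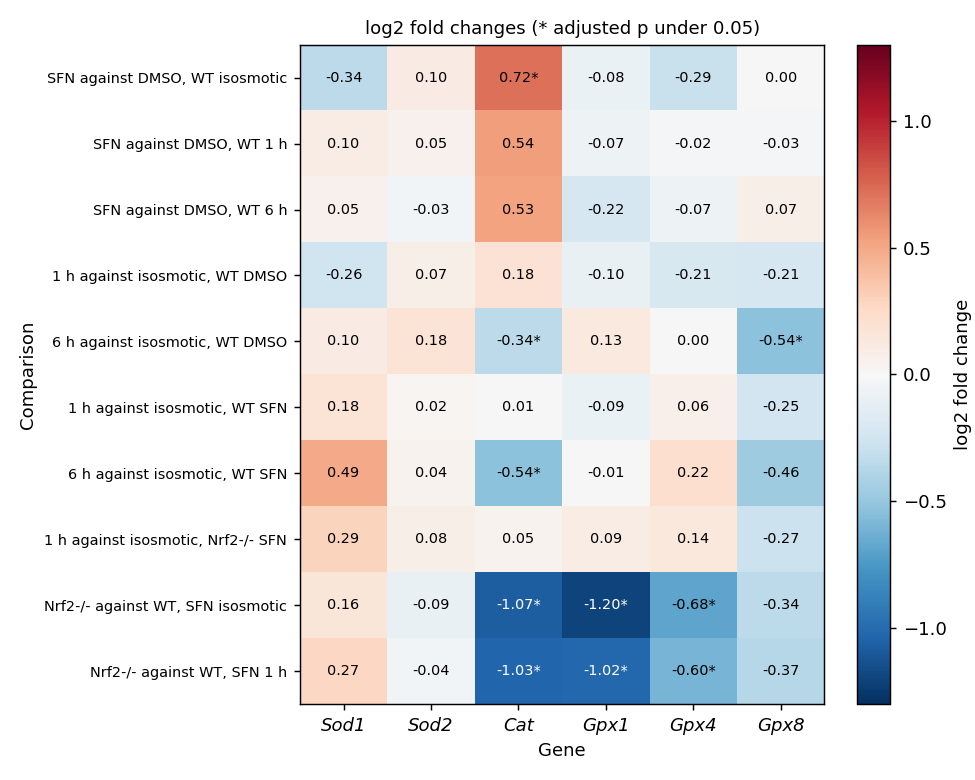
Log2 fold changes of 6 members (columns) in the 10 comparisons (rows), with an asterisk where edgeR's adjusted p was under 0.05. Red is higher and blue lower in the group named first; the largest values are 0.72 for Cat with SFN and -1.20 for Gpx1 in Nrf2-/- cells, and the Sod1 and Sod2 columns carry no asterisk.

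Gpx8, a peroxidase of the endoplasmic reticulum that carries cysteine in place of selenocysteine (ENSMUSG00000021760.5, chr13:113042753-113046410, minus strand), was lower after 6 h in hyperosmotic medium. It was at 27.0 and 29.2 CPM in WT DMSO isosmotic libraries, 23.9 and 24.6 CPM at 1 h and 20.6 and 18.2 CPM at 6 h. Under SFN the values were 27.2 and 29.1, 21.8 and 25.7, and 19.9 and 20.9 CPM. Nrf2-/- libraries had 19.9 and 24.4 CPM without stress and 23.5 and 13.1 CPM at 1 h. Under both treatments the 6 h libraries lay below the isosmotic ones. Between genotypes at 1 h Gpx8 was called only without Nrf2-/- replicate 1, at -0.84, among the alternatives run.

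At 6 h the log2 fold change of Gpx8 was -0.54 under DMSO (SE 0.20, edgeR adjusted p = 0.0415) and -0.46 under SFN (SE 0.20, adjusted p = 0.0722). The first call was lost in 8 of 14 alternatives, including each of the 4 fits without 1 of the libraries compared, and the second was gained in 5, including the fit without both Nrf2-/- 1 h libraries (-0.49, adjusted p = 0.000760). With Cat and the barely counted Gpx2, Gpx8 made up the 3 members called at 6 h under DMSO. Of these 2 were lower and Gpx2 was higher, though Gpx2, at 0 counts in WT DMSO isosmotic libraries, could only be called higher. In that comparison 45.9% of all genes were called, 22.0% as lower and 23.9% as higher. Cat was the 1 called under SFN, beside 47.6% of all genes, so neither count exceeded the background. At 1 h 0 members were called under DMSO, under SFN or in Nrf2-/- cells, by edgeR, beside 11.2%, 9.52% and 7.17% of all genes, or by DESeq2, which called 2794, 2441 and 2013 genes. Under DMSO 1 member, Gpx2, had an unadjusted p under 0.05 with edgeR, as did 4611 genes. Under SFN and in Nrf2-/- cells 0 members did, beside 4234 and 3987 genes.

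Gpx2, the glutathione peroxidase of gut epithelium (ENSMUSG00000042808.8, chr12:76792333-76795554, minus strand), and Gpx3, the secreted form that the kidney supplies to plasma (ENSMUSG00000018339.11, chr11:54902453-54910377, plus strand), were near the limit of detection. Gpx2 had 68 counts over 11 libraries, never more than 14, and each of these 11 counts was even. It was at 0 and 0 counts in WT DMSO isosmotic libraries and at 6 and 10 counts at 6 h. That is the difference behind its edgeR adjusted p of 0.0412, which rests on few fragments and gives no usable fold. Gpx2 reached 10 counts only in libraries under hyperosmotic stress and passed the filter through those. WT SFN libraries had 0 and 2 counts without stress and 2 and 14 at 6 h. Gpx3 had 2 to 18 counts in every library and no call. The related Gpx5, Gpx6 and Gpx7 did not pass the filter, with at most 4 counts in any library.

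The genes whose levels ran most closely with each well-counted member over the 16 libraries were found among 12290 others by Pearson's r of log2 CPM, which the libraries' shared groups and composition shape. Cat ran with G6pdx, the entry enzyme of the pentose phosphate pathway (r = 0.93), Gclm, a subunit of glutamate-cysteine ligase (0.92), and Gmpr2 (0.90). Gpx1 ran with Pmpcb (0.99), Eif4a3 (0.99) and Atp5g2 (0.99), and Gpx4 with Eif4a3 (0.98), Ptms (0.98) and Idh3b (0.98). Sod1 ran with the mitochondrial chaperonin Hspe1 (0.96), Atp5j2 (0.96) and Sec61g (0.95), and Gpx8 with Rnf215 (0.94), Plgrkt (0.94) and Ptges3l (0.93). The best values for Sod2 were lower, at 0.84 for Trim3, 0.83 for Plekhh3 and 0.79 for Gm45133.

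Among the members themselves the closest pair over 16 libraries was Gpx1 and Gpx4, with r = 0.97. Over the 12 WT libraries their r was 0.66, and the closest pair there was Sod1 and Gpx4 with 0.83, against 0.42 over 16. Cat and Gpx4 had r = 0.34 over 16 libraries and -0.80 over the 12 WT libraries. Leaving out the Nrf2-/- libraries also leaves out the discordant 1 h pair, and what each contributed to the likeness was not tested. The sign for Cat and Gpx4 turned within WT cells.

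Glutathione peroxidases draw on glutathione, and 8 genes of its supply were read beside them. With SFN 4 of the 8 rose without hyperosmotic stress, namely the cystine transporter Slc7a11 (log2 fold change 2.39), Chac1 (1.98), Gclc (1.24) and Gclm (1.22). Gclc and Gclm form the rate-limiting ligase of glutathione synthesis, whereas Chac1 breaks glutathione down. At 1 h 3 rose (Slc7a11 2.33, Gclc 1.21, Gclm 1.21) and at 6 h 1 (Gclm 0.59). These counts stand beside 2.84%, 0.0923% and 0.0410% of all genes called. The list median was 0.75, 0.66 and 0.13 at these times, beside 0.00 for all genes.

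After 6 h in hyperosmotic medium under DMSO 2 of the supply genes were higher, Gclc (0.95) and Slc3a2 (0.59). Another 2 were lower, the reductase Gsr (-0.48) and the synthetase Gss (-0.39). Under SFN 5 fell, led by Chac1 (-1.73), Slc7a11 (-1.48), Gclm (-0.65) and Gsr (-0.63), and 0 rose. The 4 and 5 of 8 genes called stand beside 45.9% and 47.6% of all genes, so the count under DMSO was near the background. At 1 h 1 fell under DMSO (Gclc, -0.31), 2 under SFN (Chac1 -0.97, Gclc -0.34) and 0 in Nrf2-/- cells, beside 11.2%, 9.52% and 7.17% of all genes called. Between genotypes without hyperosmotic stress 5 were lower in Nrf2-/- cells, among them Ggt1, which had 2 and 4 counts there, Gclc (-1.74), Gclm (-1.61) and Gss (-1.19), while Slc7a11 was higher (0.84). At 1 h 5 were lower and 2 higher, the latter being Slc7a11 (1.32) and Chac1 (1.10). The Nrf2-/- libraries behind these values stood apart, with 1741 and 3577 counts for Slc7a11 and 1256 and 763 for Chac1. Of all genes 34.1% and 31.5% were called in these comparisons.

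Peroxiredoxins and thioredoxins, the other large class of peroxide-removing proteins, were represented by 15 tested genes. SFN raised 3 of them without hyperosmotic stress, the sulfiredoxin Srxn1 (1.33), Sesn2 (1.08) and the thioredoxin reductase Txnrd1 (0.64), 2 at 1 h (Srxn1 1.81, Txnrd1 1.17) and 1 at 6 h (Srxn1 0.55), beside 2.84%, 0.0923% and 0.0410% of all genes called. In Nrf2-/- cells without hyperosmotic stress 2 were higher, Prdx4 (1.01) and Sesn2 (0.49), and 4 lower, led by Srxn1 (-3.25) and Txnrd1 (-1.81). At 1 h 2 were higher and 5 lower, again with Srxn1 (-3.00) and Txnrd1 (-1.95). The 6 and 7 of 15 genes called stand beside 34.1% and 31.5% of all genes, and the 4 and 5 called lower beside 18.4% and 16.2%. At 1 h of hyperosmotic stress 2 of the 15 were lower under DMSO (Srxn1 -0.54, Txnrd1 -0.44), 1 under SFN (Sesn2 -0.88) and 0 in Nrf2-/- cells, near or below the 11.2%, 9.52% and 7.17% of all genes called. At 6 h 1 rose and 3 fell under each treatment, beside 45.9% and 47.6% of all genes called.

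Gpx1 to Gpx4 carry selenocysteine, so 8 genes of selenoprotein synthesis were read too. At 6 h 6 of the 8 fell under DMSO, with Sepsecs (-1.49), Sephs2 (-1.48), Eefsec (-1.22) and Pstk (-1.19) leading, and 5 fell under SFN, with Pstk (-1.77) and Sephs2 (-1.50), where 22.0% and 22.9% of all genes were called lower. The list median was -1.10 and -0.99, beside 0.05 and 0.09 for all genes. Over the same 6 h Gpx1 and Gpx4 mRNA moved by 0.13 and 0.00 under DMSO and -0.01 and 0.22 under SFN, none of which passed. The Gpx4 value under SFN passed in 3 alternatives, with the 12 WT libraries (0.23, adjusted p = 0.00870), with the 4 libraries compared (0.24, adjusted p = 0.0302) and without both Nrf2-/- 1 h libraries (0.19, adjusted p = 0.0338). In Nrf2-/- cells 3 of the 8 were lower without hyperosmotic stress, with the selenocysteine lyase Scly falling from 22.6 ± 2.33 to 1.24 ± 0.263 CPM (SD, n = 2 each). At 1 h 2 were lower, Scly (-4.69) and Secisbp2 (-0.78), and Sephs2 was higher (0.54). The Nrf2-/- libraries at 1 h differed for Sephs2, with 1789 and 2415 counts. The 3 of 8 called in each comparison were near the 34.1% and 31.5% of all genes. With SFN 0 of the 8 were called, beside 2.84%, 0.0923% and 0.0410% of all genes without stress, at 1 h and at 6 h. For 1 h of stress 0 were called too, beside 11.2%, 9.52% and 7.17% of all genes under DMSO, under SFN and in Nrf2-/- cells.

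Catalase is imported into peroxisomes after translation, and 15 genes of peroxisome assembly were tested. At 6 h 10 fell and 1 rose under each treatment, beside 22.0% and 22.9% of all genes called lower. Among those that fell were Pex16 (-1.98), Pex14 (-1.45) and Pex2 (-1.24) under DMSO and Pex14 (-1.80), Pex16 (-1.33) and Pex2 (-1.16) under SFN, and the list medians were -0.53 and -0.81. With SFN 0 of the 15 were called, beside 2.84%, 0.0923% and 0.0410% of all genes without stress, at 1 h and at 6 h. At 1 h 1 rose under DMSO, Pex26 (0.47), and 0 changed in the other cells, beside 11.2%, 9.52% and 7.17% of all genes called. In Nrf2-/- cells 3 were higher and 5 lower without hyperosmotic stress, and 1 was higher and 4 lower at 1 h, with Pex16 among the lower genes at both (-0.90 and -1.02). Of all genes 34.1% and 31.5% were called there.

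Of 5 genes of copper delivery, on which Sod1 depends, 0 were called with SFN. The shares of all genes there were 2.84%, 0.0923% and 0.0410% without stress, at 1 h and at 6 h. For 1 h of stress 0 were called too, beside 11.2%, 9.52% and 7.17% of all genes under DMSO, under SFN and in Nrf2-/- cells. At 6 h the copper importer Slc31a1 fell under DMSO (-0.46) and SFN (-0.51) and the exporter Atp7b, at under 2 CPM, rose (2.51 and 2.07), and Atp7a fell under SFN (-0.89). Atp7a and Atp7b were higher in Nrf2-/- cells without stress (1.21 and 2.65) and at 1 h (1.34 and 2.04). The 2 and 3 of 5 called at 6 h and the 2 of 5 called between genotypes stand beside 45.9%, 47.6%, 34.1% and 31.5% of all genes. Ccs, the chaperone that loads Sod1, was not called in any comparison. Its Nrf2-/- 1 h libraries stood apart, with 1142 and 320 counts. Group means of Ccs ran from 15.1 CPM in Nrf2-/- SFN isosmotic cells to 30.4 CPM in WT DMSO isosmotic cells, so the lack of a call does not show a steady level.

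Sources of superoxide and hydrogen peroxide were represented by 9 tested genes. With SFN 0 of them were called, beside 2.84%, 0.0923% and 0.0410% of all genes without stress, at 1 h and at 6 h. The NADPH oxidase gene Nox1 rose from 0 and 2 counts to 31 and 18 at 1 h under DMSO, and Duox2 from 0 and 2 to 15 and 20. Under SFN 2 rose at 1 h, Nox1 and Duox1, and in Nrf2-/- cells 1, Nox1, from 0 and 2 to 51 and 69 counts, where 11.2%, 9.52% and 7.17% of all genes were called. At 6 h 4 of the 9 rose under each treatment, Nox1, Duox1, Duox2 and Xdh, all still under 2 CPM, and 1 fell. Of all genes 45.9% and 47.6% were called there. Nox1, Duox2 and Xdh had at most 4 counts in any isosmotic library and passed the filter on low counts only through libraries under stress. A fall under stress could hardly be seen for them, so the counts of genes that rose cannot be weighed against those shares. Between genotypes 2 were higher and 2 lower without stress and 1 higher and 2 lower at 1 h, where 34.1% and 31.5% of all genes were called. Nox4 was lower in Nrf2-/- cells (0.381 CPM against 4.14 CPM without stress), while Maoa was higher (1.00 at both times) and Duox1, at under 1 CPM, was called higher without stress.

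**Figure D4:**
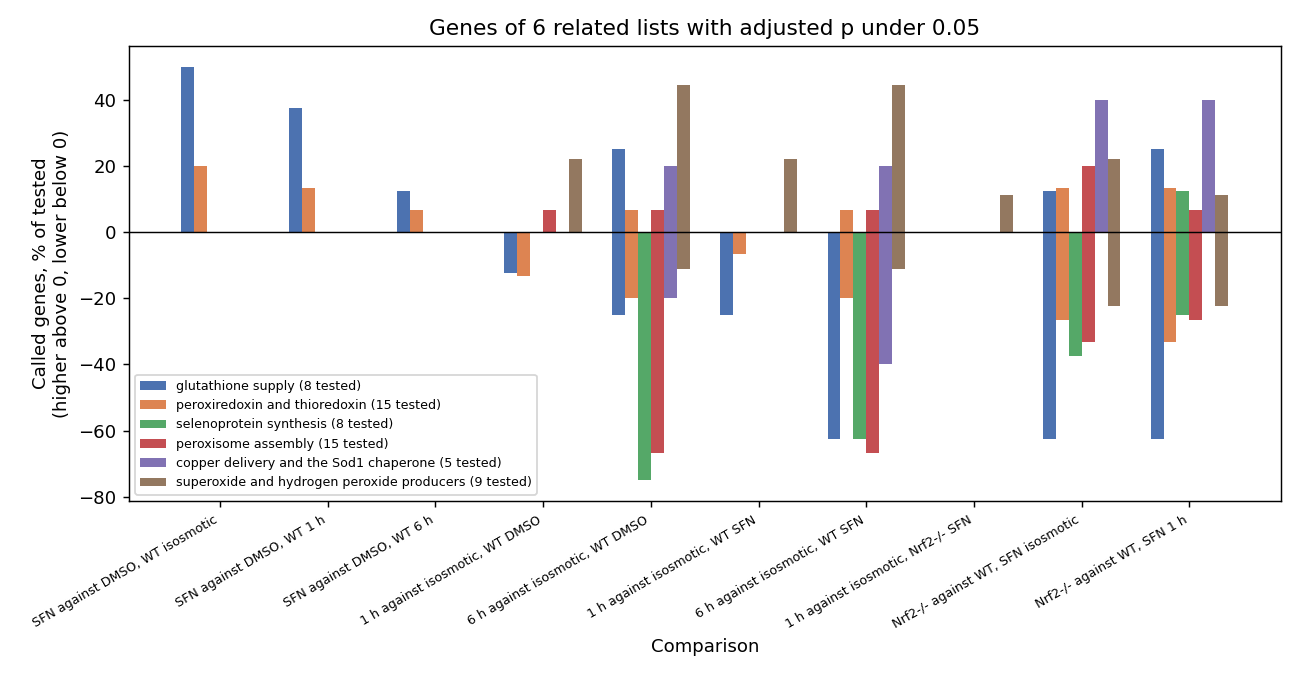
Share of the tested genes of 6 related lists with edgeR's adjusted p under 0.05 (vertical axis, percent, higher above 0 and lower below 0) in the 10 comparisons (horizontal axis). The blue bars show 4 of 8 glutathione supply genes higher with SFN without hyperosmotic stress, and the green and red bars show 6 of 8 selenoprotein synthesis and 10 of 15 peroxisome assembly genes lower at 6 h under DMSO.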

How the data were processed

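RNA of mIMCD3 cells was extracted with TRIzol and sequenced on an Illumina NovaSeq. The authors aligned reads to mm10 and deposited raw read counts per gene from featureCounts, 1 file per library. The study's methods name Hisat2 as the aligner and the submitters' processing notes name Bowtie2; versions, gene annotation and strand setting are not given in the sources used here, so reads of near-identical or antisense genes may be split or joined. Blank lines without a gene name held 0 counts and were left out.

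Replicate numbers followed the titles, which for WT SFN isosmotic libraries differ from those on the deposited files. Counts of all 16 libraries entered 1 fit with edgeR 4.0.16 (R 4.3.3): genes kept by filterByExpr (19509 of 55367), TMM scaling, 8 group coefficients and the robust quasi-likelihood test, with Benjamini-Hochberg adjustment over all tested genes and a threshold of 0.05. Log2 CPM used a prior count of 2. Intervals are 95%. The 3-count floor covers counting error only. Loci and lengths came from GENCODE M21 (GRCm38) and promoter windows from RefSeq. Pseudogenes were found with blastn at 90% identity over 200 bases or more.

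All 9 members were named, with called genes of 6 related lists and 5 lists of cell markers (epithelium, proximal tubule, fibroblast, endothelium, leukocyte). Some genes of these lists are not reported here. The members and lists were chosen with earlier results of these data known. Alternatives were RLE scaling, no low-count filter, a minimum of 10 counts in each library, a block for the replicate number, fewer libraries, each replicate left out and DESeq2 1.42.0. Leaving out both Nrf2-/- 1 h libraries, removing the trend with length and GC content, and adding pseudogene reads were chosen after seeing the data. The length in that trend was the total of all annotated exons, which for Sod1 is 3970 bases against 641 in its longest principal transcript. The fit was tested on simulated data, but the outcome is not reported here and no result above rests on it.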

Additional observations from a re-analysis of the deposited data

Results flagged for a closer look

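No member was flagged. Genes of the related and marker lists were flagged, as was Hmox1, which was read as a check of the labels. The reason was that the SFN effect in WT cells differed between times by edgeR's test of the difference itself. At 6 h minus isosmotic, the difference in log2 fold change was -1.13 for Sesn2 (adjusted p = 0.00690), -1.12 for Gclc (adjusted p = 0.000576), -1.82 for Chac1 (adjusted p = 0.00471), -0.78 for Srxn1 (adjusted p = 0.00527), -0.63 for Gclm (adjusted p = 0.0387) and -1.66 for Hmox1 (adjusted p = 0.0360). For Cdh1, the epithelial cadherin, it was 0.74 (adjusted p = 0.00848). At 1 h minus isosmotic, it was 0.67 for Cdh1 (adjusted p = 0.0248) and 0.70 for the keratin Krt18 (adjusted p = 0.0382). The same difference for Cat was -0.19 at 6 h and -0.18 at 1 h, and neither passed. All these differences share the isosmotic libraries.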

How the results depend on the processing

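None of the member results followed gene by gene (Cat in 7 comparisons, Gpx1, Gpx4 and Gpx8) changed sign in any alternative. The Cat effects of SFN without stress, of 6 h under SFN and of genotype kept their calls in all alternatives run. The number of members called moved as follows, with the replicate block and the fits without 1 library given further on. Under SFN at 1 h and at 6 h it was 1 (Cat) rather than 0 with the 12 WT libraries, with the libraries compared, without both Nrf2-/- 1 h libraries and with DESeq2. For SFN without stress it was 2 with the 12 WT libraries and 3 without both Nrf2-/- 1 h libraries, against 1. For 6 h under SFN it was 3 without a filter, 4 with the 12 WT libraries, with the libraries compared or without both Nrf2-/- 1 h libraries, and 2 with the length and GC trend removed, against 1. For 6 h under DMSO it was 1 (Sod2) with at least 10 counts in every library, against 3, and it was 2 to 4 in the other alternatives that kept all libraries of the comparison, apart from the replicate block, in part with other members. For 1 h under DMSO it was 1 (Gpx4) without both Nrf2-/- 1 h libraries, against 0, and for genotype at 1 h it was 1 (Cat) with the libraries compared, against 3, and 2 with the length and GC trend removed. For genotype without stress it was 4, with Gpx8, in the libraries compared, without both Nrf2-/- 1 h libraries and with that trend removed, against 3. The cause was not tested.

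Leaving out 1 library gave 0 to 1 members for 6 h under DMSO, 0 to 3 for 1 h in Nrf2-/- cells, 3 to 5 for genotype at 1 h and 0 to 1 for the difference of the 1 h effect between genotypes. In the last 3 the counts moved only without a Nrf2-/- 1 h library: for 1 h in Nrf2-/- cells Sod1 and Gpx8 were called without replicate 1, and Sod1, Gpx1 and Gpx4 without replicate 2. The 0 for 6 h under DMSO came without WT DMSO isosmotic replicate 1 or WT DMSO 6 h replicate 2.

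Replicate numbers were checked for pairing. Same-numbered libraries of 28 group pairs had correlations of their deviations from -0.246 to 0.403 (median -0.0111), 3 of them over 0.1, so the numbers were not taken to pair the samples. With the replicate block, 1 member (Cat) was called for 6 h under DMSO, against 3.

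Scaling moved the median of all genes at 6 h by 0.12 under DMSO and 0.13 under SFN with at least 10 counts in every library. That minimum also took the share of called genes that were higher at 1 h from 63.4% to 41.9% under DMSO, from 62.4% to 43.0% under SFN and from 60.8% to 23.7% in Nrf2-/- cells, and DESeq2 took it from 38.2% to 50.8% for SFN without stress. With 2 libraries a group, counts of Sod3, Gpx2 and Gpx3 were too few to show any but very large changes.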
